A study of Homo sapiens with 18 samples.

Results

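Replication-independent histone variants are core or linker histones whose genes lie outside the large histone clusters and are transcribed throughout the cell cycle. The genes were taken by symbol: H1-10, H2AJ, H2AX, H2AZ1, H2AZ2, H3-3A, H3-3B, MACROH2A1 and MACROH2A2. All 9 were found among the 40916 symbols that each of the 18 count tables lists, and all 9 passed the filter on low counts in each of the 8 comparisons made below.

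Poly(A)-selected, stranded RNA libraries came from monocultures of MCF10A, from monocultures of HCT116 and from cultures that mixed the lines. MCF10A cells, which are breast epithelial and not transformed, expressed H2B-GFP, a fluorescent histone. HCT116 cells come from a colorectal carcinoma and had no such label. They are given as p53-null, a genotype that was not checked here. Whether any response of HCT116 below depends on p53 was not tested. Cultures received no radiation (NIR) or a dose of 10 Gy (IR), with 3 biological replicates in each of the 6 groups. MCF10A was grown in F12 and DMEM with horse serum, EGF, hydrocortisone, cholera toxin and insulin, and HCT116 in McCoy's medium with fetal bovine serum, so line and medium cannot be told apart. No medium is given for the mixtures. The harvest is given as day 2 in sample titles and as 72 h after irradiation in the design text.

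Most histone mRNA is made in S phase from clustered genes, ends in a stem-loop and lacks a poly(A) tail. Variant genes instead yield largely polyadenylated mRNA, and their proteins can enter chromatin without DNA replication. H2AX is an exception in that it gives a stem-loop mRNA as well as a polyadenylated one, and poly(A) selection favours the latter. H3.3 is placed at active genes by HIRA and at repeats by DAXX and ATRX. H2A.Z flanks transcription start sites. H2AX is phosphorylated beside DNA breaks. MacroH2A carries a large additional domain and is abundant in silent chromatin.

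Libraries held 25.7 M to 40.8 M counts (M, 1000000). Levels are given as CPM, counts per 1000000 counts of the library, as mean ± SD over 3 libraries. The summed levels of the lists of line markers separated the monocultures as labelled. All 10 basal mammary genes were at 1 CPM or more in MCF10A, with a summed level of 11510 to 12410 CPM in NIR libraries, against 725 to 882 CPM in HCT116 NIR. Intestinal genes summed to 1047 to 1336 CPM in HCT116 NIR and to 9.22 to 11.2 CPM in MCF10A NIR, where CDX1, CDX2, CDH17, GPA33, LGR5 and KRT19 had no count. Of the 10 intestinal genes only 4 were at 1 CPM or more in HCT116 NIR and in HCT116 IR, and 1 in MCF10A NIR. CDX1 and ASCL2 had no count in HCT116. The mixed cultures, described as 50% of each line, held little MCF10A RNA. Line-specific genes put its share at 0.447% ± 0.0528 in NIR and 1.24% ± 0.0662 in IR mixtures (SD, n = 3), with 0.399% to 0.503% and 1.17% to 1.29% in single libraries. The level of the MCF10A-specific genes in HCT116 itself, under 1 CPM, was not subtracted, so the shares can be too high. Values of the mixed cultures are therefore close to values of HCT116 RNA. CDKN1A, which encodes a cell-cycle inhibitor, was called higher after irradiation, at 590 against 171.8 CPM in MCF10A and 1593 against 318 CPM in HCT116. MKI67, a proliferation marker, was called lower, at 231 against 677 CPM and 302 against 1087 CPM.

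The genes lie on 9 chromosomes. In the RefSeq annotation of GRCh38.p14 H1-10 spans bases 129314771 to 129316286 of chromosome 3, H2AX 119093874 to 119095465 of chromosome 11, and H2AJ 14774405 to 14778002 of chromosome 12. H2AZ1 spans 99948088 to 99950275 of chromosome 4 and H2AZ2 44826889 to 44848126 of chromosome 7. H3-3A spans 226061831 to 226072019 of chromosome 1 and H3-3B 75776434 to 75779779 of chromosome 17. MACROH2A1 spans 135334381 to 135399887 of chromosome 5 and MACROH2A2 70052846 to 70112282 of chromosome 10. Since counts were taken per whole gene, exons, introns and transcript isoforms cannot be separated.

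Upstream sequences of 3 H2A variant genes are shown because 2 of these genes (H2AX and H2AZ1) fell after irradiation in every culture and H2AJ was not called in any. Each is the 250 bases before the annotated start in RefSeq, read 5′ to 3′ on the gene's strand. Capitals mark 3 motifs, searched on each strand, so that a match to the opposite strand appears as its reverse complement. The CCAAT box is the first and the TATA box, spelled TATAAA, the second. The last is the cell-cycle homology region, whose accepted spellings were TTTGAA and, with a central CpG, TTCGAA. No match overlaps another in these windows.
H2AZ1, chr4:99950276-99950525, minus strand: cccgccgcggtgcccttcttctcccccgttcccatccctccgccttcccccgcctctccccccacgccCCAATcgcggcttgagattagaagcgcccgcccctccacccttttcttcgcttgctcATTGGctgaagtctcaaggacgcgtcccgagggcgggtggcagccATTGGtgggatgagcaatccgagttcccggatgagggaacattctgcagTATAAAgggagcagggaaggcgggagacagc
H2AX, chr11:119095466-119095715, minus strand: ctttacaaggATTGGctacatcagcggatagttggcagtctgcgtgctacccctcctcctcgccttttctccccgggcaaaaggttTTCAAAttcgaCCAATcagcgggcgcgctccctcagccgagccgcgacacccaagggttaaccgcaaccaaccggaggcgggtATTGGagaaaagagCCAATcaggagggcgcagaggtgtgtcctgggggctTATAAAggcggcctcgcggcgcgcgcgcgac
H2AJ, chr12:14774155-14774404, plus strand: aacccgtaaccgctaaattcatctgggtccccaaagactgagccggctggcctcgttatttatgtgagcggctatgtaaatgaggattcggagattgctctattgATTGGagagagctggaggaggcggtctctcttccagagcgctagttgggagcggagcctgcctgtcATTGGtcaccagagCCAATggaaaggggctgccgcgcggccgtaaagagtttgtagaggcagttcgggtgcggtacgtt
H2AZ1 and H2AX each hold TATAAA starting 31 bases before the start. CCAAT occurs 3 times in H2AZ1, 4 times in H2AX and 3 times in H2AJ. Over the first listed start of each gene, 6 of the 9 members held CCAAT on either strand (H2AJ, H2AX, H2AZ1, H2AZ2, H3-3A and H3-3B), against 33.0% of 27305 promoter windows. TATAAA was in 4 members (H1-10, H2AX, H2AZ1 and H3-3B) against 11.1% of windows. It was not in the windows of H2AZ2, H3-3A and MACROH2A2, which also fell in every culture, nor in those of H2AJ and MACROH2A1. The cell-cycle homology letters were in 2 members, H2AX and H2AZ2, against 14.6%. None of the 9 held the E2F letters TTTCGCGC, TTTGGCGC or TTTCCCGC, which 2.38% of windows held. More than 1 start was listed for MACROH2A1 and H3-3A, and their windows differed. The first listed start of MACROH2A1 lies inside the gene, and the window before its outer start held 2 matches to the CCAAT box. A later window of H3-3A held no such match. All of these matches are descriptions of letters in a window.

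Irradiation was compared within each kind of culture to ask how the cells' transcripts responded to 10 Gy. The members mostly fell. In MCF10A 8 of 9 fell, in HCT116 7 of 9, and in the mixed cultures 7 of 9, and none rose (edgeR quasi-likelihood test, adjusted p under 0.05). Over all genes tested, 55.4% were called in MCF10A, 52.5% in HCT116 and 49.4% in the mixed cultures, and 29.2%, 27.2% and 25.4% were called lower. Irradiated and non-irradiated CPM did not overlap for these 8, 7 and 7 members, against 60.6%, 58.8% and 56.4% of all genes tested. A change in a bulk library can come from fewer cells of a kind or from less RNA per cell, which cannot be told apart. MKI67 fell in the same libraries, and its part in the members' changes was not tested. The median member changed by -0.70 on the log2 scale in MCF10A, -0.70 in HCT116 and -0.78 in the mixed cultures, while the median of all genes lay at 0.003, 0.007 and 0.012. The members' summed level went from 1785 ± 68.8 to 1108 ± 15.8 CPM (SD, n = 3) in MCF10A, and HCT116 went from 2102 ± 42.4 to 1263 ± 31.2 CPM. H2AJ was the member called in no culture, and MACROH2A1 was called in MCF10A alone.

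**Figure D1:**
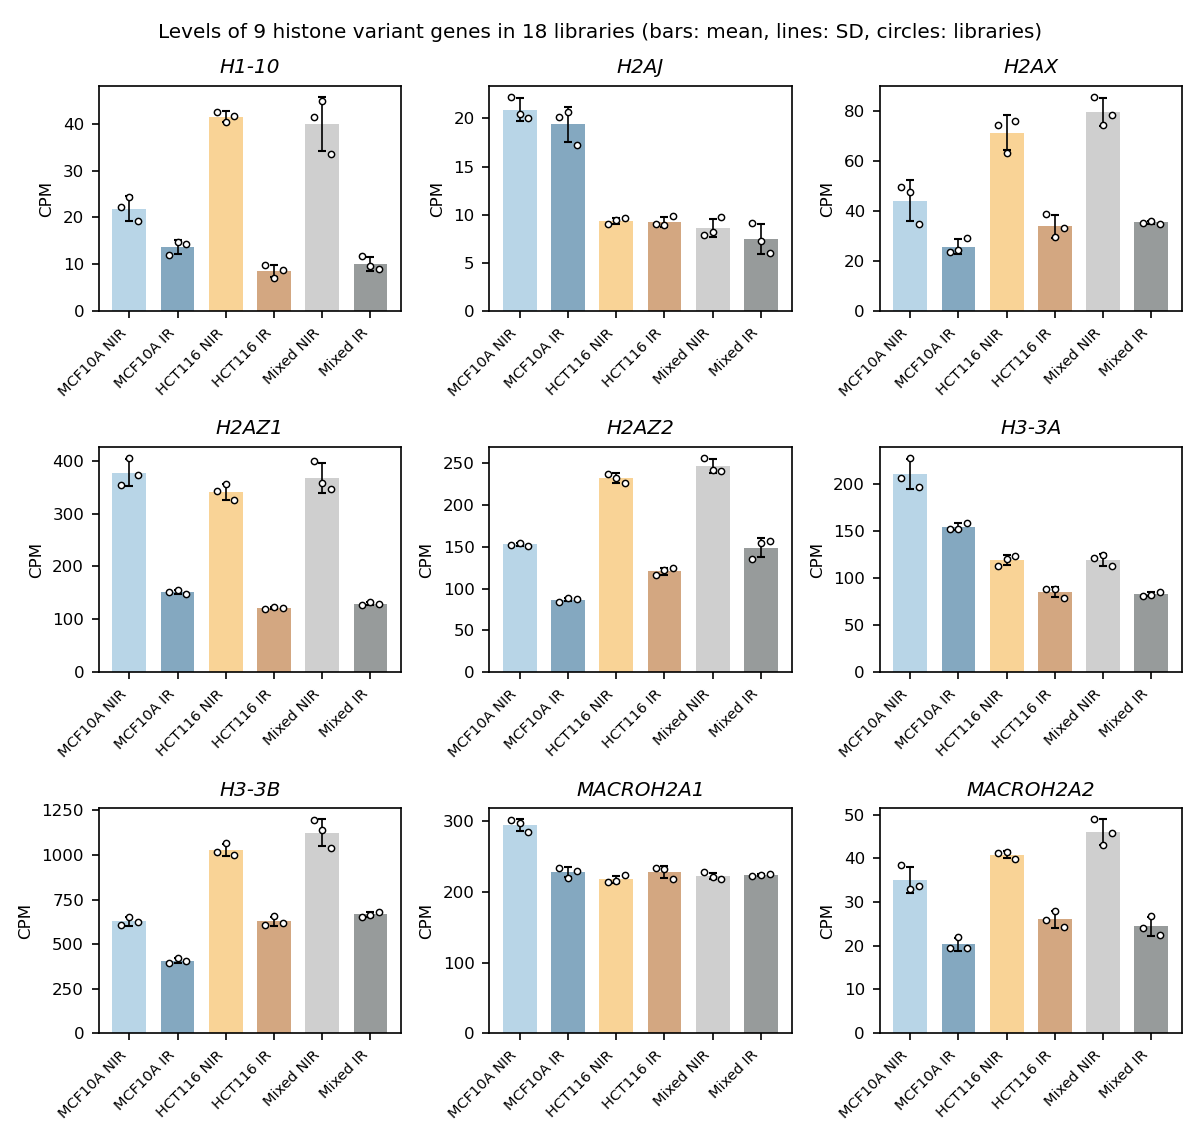
CPM (vertical axis, from 0) of the 9 genes in the 6 groups (horizontal axis). Bars are means, lines SD and circles the 3 libraries of a group. For H2AZ1 all irradiated libraries, at 120 to 155 CPM, lie below all non-irradiated ones, at 325 to 406 CPM, whereas for H2AJ the irradiated and non-irradiated libraries of each culture overlap.

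**Figure D2:**
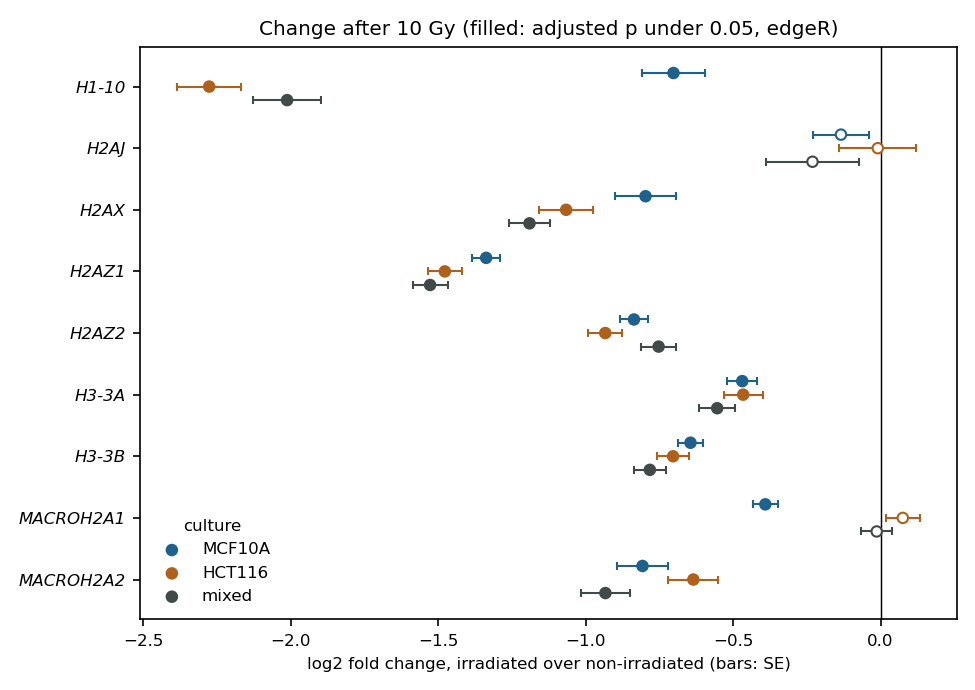
Log2 fold change of irradiated over non-irradiated libraries (horizontal axis) for the 9 genes, in MCF10A, HCT116 and mixed cultures. Bars are SE, and filled points have an adjusted p under 0.05. H1-10 lies at -0.70 in MCF10A and at -2.28 in HCT116, and MACROH2A1 at -0.39 and 0.08.

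H2AZ1 and H2AZ2 encode the H2A.Z.1 and H2A.Z.2 forms of H2A.Z. H2AZ1 was at 353.5, 406 and 373 CPM in the MCF10A NIR libraries and at 152.0, 154.8 and 148 CPM in the MCF10A IR libraries. In HCT116 it was at 343, 355.0 and 325 CPM without and at 119.9, 123.7 and 121.7 CPM with irradiation. The groups did not overlap in either line. It fell by 1.34 on the log2 scale in MCF10A (SE 0.049, adjusted p = 7.7e-19), by 1.48 in HCT116 (SE 0.058, 1.7e-15) and by 1.53 in the mixed cultures (SE 0.06, 2.3e-14). In the mixed cultures it went from 399.6, 358 and 346 to 127.9, 133.6 and 128.0 CPM. Of the 9 members it had the most negative change in MCF10A, at percentile 1.3 of all genes tested there.

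H2AZ2 also fell, with smaller changes than H2AZ1. It was at 152.0, 154.9 and 151.5 CPM in MCF10A NIR and at 84.5, 88.6 and 87.5 CPM in MCF10A IR. In HCT116 it went from 238, 233 and 226 to 116.3, 122.4 and 124.1 CPM, again without overlap. The log2 fold changes were -0.84 (SE 0.048, adjusted p = 1.2e-14) in MCF10A, -0.93 (SE 0.058, 4.1e-12) in HCT116 and -0.75 (SE 0.06, 1.2e-09) in the mixed cultures. Mixed libraries went from 257, 242 and 241 to 135.7, 154.7 and 156.6 CPM.

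The coding sequences of the pair show how far their reads can be told apart. The first 120 of their 387 coding bases follow, from GENCODE release 29 transcripts, with the 29 bases that differ in capitals.
H2AZ1: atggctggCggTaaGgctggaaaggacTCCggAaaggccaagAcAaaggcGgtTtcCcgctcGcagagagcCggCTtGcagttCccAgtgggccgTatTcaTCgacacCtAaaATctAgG
H2AZ2: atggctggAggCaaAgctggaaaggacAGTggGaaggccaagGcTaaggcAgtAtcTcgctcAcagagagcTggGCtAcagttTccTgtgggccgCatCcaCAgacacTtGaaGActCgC
Over all 387 bases 76 differed (80.4% identical), and the longest stretch shared by any of their transcripts was 23 bases, against a read length of 150. H3-3A and H3-3B differed at 88 of 411 coding bases (78.6% identical), with a longest shared stretch of 14 bases. MACROH2A1 and MACROH2A2 were 73.4% identical over the aligned coding bases, with a longest shared stretch of 17 bases. H2AX and H2AJ were 83.1% identical, with a longest shared stretch of 44 bases.

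The ratio of H2AZ1 to H2AZ2 counts within a library does not depend on normalization. It was 2.32, 2.62 and 2.46 in MCF10A NIR and 1.80, 1.75 and 1.70 in MCF10A IR. In HCT116 it went from 1.44, 1.52 and 1.44 to 1.03, 1.01 and 0.981, and in the mixed cultures from 1.56, 1.48 and 1.43 to 0.942, 0.864 and 0.817. Irradiated libraries lay below non-irradiated ones in each culture, with ratios changed by -0.50 (SE 0.055), -0.54 (SE 0.034) and -0.77 (SE 0.069) on the log2 scale. Without irradiation HCT116 lay below MCF10A by 0.75 on this scale (a log2 change of -0.75, SE 0.056). Each of these differences had an exact permutation p of 0.1 (2-sided, n = 3 against 3), the smallest this design allows, and 0.1 after adjustment over the 12 ratio tests.

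**Figure D3:**
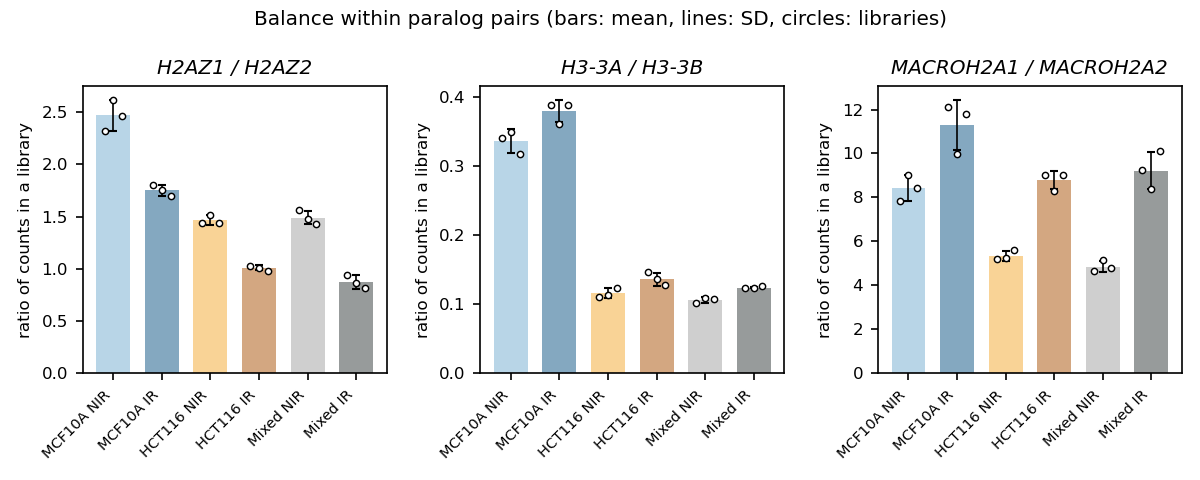
Ratio of counts within a library (vertical axis, from 0) for H2AZ1 over H2AZ2, H3-3A over H3-3B and MACROH2A1 over MACROH2A2 in the 6 groups. Bars are means, lines SD and circles libraries. H2AZ1 over H2AZ2 is lower in irradiated libraries of each culture (1.75 against 2.47 in MCF10A), and MACROH2A1 over MACROH2A2 is higher (8.79 against 5.35 in HCT116).

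H2AX encodes the H2A variant whose phosphorylated form marks DNA breaks. It was at 49.7, 47.8 and 34.7 CPM in MCF10A NIR and at 23.5, 24.4 and 29.2 CPM in MCF10A IR. HCT116 went from 74.4, 63.2 and 76.0 to 38.9, 29.5 and 33.2 CPM. The mixed cultures went from 85.6, 74.5 and 78.5 to 35.3, 36.1 and 34.9 CPM. Irradiated and non-irradiated libraries did not overlap in any culture, though MCF10A NIR replicate 3 lay nearest to the irradiated ones. H2AX fell by 0.80 on the log2 scale in MCF10A (SE 0.102, adjusted p = 1.5e-07), by 1.07 in HCT116 (SE 0.093, 1.3e-09) and by 1.19 in the mixed cultures (SE 0.07, 1.1e-11).

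H2AJ encodes H2A.J, a variant known to accumulate as protein in senescent cells with lasting DNA damage. Its mRNA was at 22.3, 20.4 and 20.0 CPM in MCF10A NIR and at 20.2, 20.7 and 17.3 CPM in MCF10A IR. HCT116 libraries were at 8.997, 9.45 and 9.67 CPM without and at 9.02, 8.96 and 9.83 CPM with irradiation, and the groups overlapped in each culture. The log2 fold changes were -0.13 (SE 0.096, adjusted p = 0.24), -0.01 (SE 0.13, 0.96) and, in the mixed cultures, -0.23 (SE 0.157, 0.24). The counts behind these values were 220 to 757 per library, and no change was called. Small changes could go uncalled at this depth. H1-10, with as few as 224 counts in a library, was called in each culture. Its changes were larger (-0.70 in MCF10A, -2.28 in HCT116 and -2.01 in the mixed cultures), so its calls do not show that small ones would be found. H2AJ took 1.17% of the members' summed CPM in MCF10A NIR and 1.75% in MCF10A IR. Its own mean went from 20.9 to 19.4 CPM there, and the sum from 1785 to 1108 CPM, so the larger share is not a rise of H2AJ.

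H1-10 encodes the linker histone H1.10, also called H1x. It was at 22.2, 24.4 and 19.2 CPM in MCF10A NIR and at 11.98, 14.7 and 14.4 CPM in MCF10A IR. HCT116 went from 42.6, 40.3 and 41.6 to 9.78, 7.17 and 8.70 CPM. In the mixed cultures it went from 41.5, 44.8 and 33.6 to 11.7, 9.65 and 8.92 CPM. The groups did not overlap in any culture. The fall was 0.70 on the log2 scale in MCF10A (a log2 fold change of -0.70, SE 0.108, adjusted p = 2.9e-06). It was larger in HCT116, at -2.28 (SE 0.108, 4.3e-14), and in the mixed cultures, at -2.01 (SE 0.116, 7.5e-12), where H1-10 lay at percentiles 0.6 and 0.3 of all genes tested. In HCT116 it was the member with the largest change.

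H3-3A and H3-3B encode the same H3.3 protein from different mRNAs. H3-3A was at 206, 228 and 197 CPM in MCF10A NIR and at 152.3, 152.5 and 158.9 CPM in MCF10A IR. In HCT116 it went from 112.9, 121.0 and 123.3 to 88.7, 88.98 and 79.3 CPM. It fell by 0.47 on the log2 scale in each line (a log2 fold change of -0.47 with SE 0.05 and adjusted p = 6.0e-09 in MCF10A, and SE 0.067 and 3.0e-06 in HCT116), without overlap of the groups. H3-3B, at the higher level per kb of exons, was at 606, 652 and 624 CPM in MCF10A NIR and at 391.7, 422 and 408 CPM in MCF10A IR. HCT116 went from 1019, 1068 and 997 to 607, 656 and 620 CPM. H3-3B fell by 0.64 (SE 0.042, adjusted p = 2.5e-13) and 0.70 (SE 0.055, 1.9e-10), and by 0.78 in the mixed cultures (SE 0.055, 1.5e-10), where H3-3A fell by 0.55 (SE 0.061, 1.6e-07).

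The ratio of H3-3A to H3-3B counts was 0.336 ± 0.0173 in MCF10A NIR and 0.380 ± 0.0162 in MCF10A IR (SD, n = 3). It was 0.116 ± 0.00681 and 0.136 ± 0.0091 in HCT116, and 0.106 ± 0.00372 and 0.124 ± 0.00107 in the mixed cultures. Irradiated libraries lay above non-irradiated ones in each culture, by 0.18, 0.24 and 0.23 on the log2 scale (exact permutation p = 0.1 each). The larger difference was between lines, at -1.53 (SE 0.065, exact permutation p = 0.1).

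Genes with long stretches of H3-3A sequence bear on how its reads were assigned. The tables list 48 symbols named H3P or H3-5, not all of which share long stretches with H3-3A, and 26 of them had counts. They took 1.75% to 5.04% of the counts they make up with H3-3A and H3-3B in each library. H3P6 shares a stretch of 411 bases with H3-3A transcripts, longer than a read. It was at 36.1 CPM in MCF10A NIR, 26.2 in MCF10A IR, 13.1 in HCT116 NIR and 8.51 in HCT116 IR. This is the order of H3-3A's own means in these groups (211, 154.6, 119 and 85.6 CPM), against which the copies weigh more than against the sum with H3-3B. H3P16 shares 198 bases and was at 9.80 CPM in HCT116 NIR and 0.029 CPM in MCF10A NIR. With the counts of H3P6 and H3P16 added to H3-3A, an alternative chosen after seeing the data, the changes were -0.47 in each line and -0.54 in the mixed cultures. How reads that match more than 1 gene were counted is not known here. Adding counts cannot recover reads that were left uncounted, and the ratios of H3-3A to H3-3B share this limit. The H2AZP and H2AZ2P symbols took 0.0201% to 0.456% of the counts they make up with H2AZ1 and H2AZ2.

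MACROH2A1 and MACROH2A2 encode the macroH2A forms. MACROH2A1 was at 302, 298 and 285 CPM in MCF10A NIR and at 235, 220 and 229.9 CPM in MCF10A IR, without overlap. HCT116 libraries were at 214, 216 and 224 CPM without and at 234, 233 and 218 CPM with irradiation, and these overlapped. It fell by 0.39 on the log2 scale in MCF10A (SE 0.042, adjusted p = 6.1e-09). It was not called in HCT116, at 0.08 (SE 0.058, 0.29), or in the mixed cultures, at -0.01 (SE 0.052, 0.86). MACROH2A2, the paralog at the lower level per kb of exons, fell by 0.81 in MCF10A (SE 0.086, adjusted p = 5.4e-09), by 0.63 in HCT116 (a log2 fold change of -0.635, SE 0.085, 1.2e-06) and by 0.93 in the mixed cultures (SE 0.084, 7.5e-09). Its libraries went from 38.5, 32.9 and 33.7 to 19.4, 22.1 and 19.5 CPM in MCF10A, and from 41.2, 41.4 and 39.9 to 25.96, 28.1 and 24.2 CPM in HCT116.

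The ratio of MACROH2A1 to MACROH2A2 counts was higher after irradiation in each culture. It was 8.44 ± 0.598 and 11.3 ± 1.15 in MCF10A, 5.35 ± 0.233 and 8.79 ± 0.418 in HCT116, and 4.85 ± 0.255 and 9.22 ± 0.847 in the mixed cultures (SD, n = 3). These are log2 changes of 0.41, 0.71 and 0.92, without overlap (exact permutation p = 0.1 each). The ratio counts all MACROH2A1 mRNA, since its splice forms are not separated in the tables.

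Whether the lines responded differently was tested as the response of HCT116 minus that of MCF10A over the 12 monoculture libraries. Of the 9 members 4 were called, H1-10, H2AZ1 and H2AZ2 lower and MACROH2A1 higher in HCT116, against 37.3% of all genes tested (15.4% higher and 21.9% lower). Over all genes the median difference was -0.10, and this split depended on the fit. Without mitochondrial and top genes 19.7% were higher and 17.8% lower (median -0.01), and in 1 fit over all libraries 18.9% and 17.6% (median -0.01). Without a filter on low counts 11.9% were higher and 11.1% lower (median -0.06). Without 1 MCF10A IR replicate or HCT116 IR replicate 2, 17.6% to 18% were higher and 15.4% to 15.8% lower, with medians from -0.01 to 0.01. H1-10 differed by -1.65 (SE 0.164, adjusted p = 1.2e-08) and MACROH2A1 by 0.39 (SE 0.069, 7.1e-05), at percentiles 9.3 and 78.6 of all genes. Both stayed called in each of the 12 fits that left out a library, from -1.77 to -1.43 for H1-10 and from 0.37 to 0.51 for MACROH2A1.

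H2AZ1 differed by -0.22 (SE 0.074, adjusted p = 0.023) and H2AZ2 by -0.18 (SE 0.069, 0.049), at percentiles 42.9 and 45.4, so near the middle of all genes. These calls were not stable. The H2AZ1 call was lost in 7 of the 12 fits, those without MCF10A NIR replicates 1 (-0.17) or 3 (-0.21), without any of MCF10A IR replicates 1 (-0.12), 2 (-0.09) or 3 (-0.13), or without replicate 2 of HCT116 NIR (-0.19) or IR (-0.13). The H2AZ2 call was lost in 11 of the 12 fits, in all but the one without HCT116 NIR replicate 3, with values from -0.19 to -0.05. H2AX was not called, at -0.35 (SE 0.164, adjusted p = 0.10), but was called without MCF10A NIR replicate 1 (-0.44) and without HCT116 IR replicate 1 (-0.46). H2AJ at 0.05 (SE 0.153), H3-3A at -0.07 (SE 0.088), H3-3B at -0.14 (SE 0.068) and MACROH2A2 at 0.09 (SE 0.123) were not called.

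**Figure D4:**
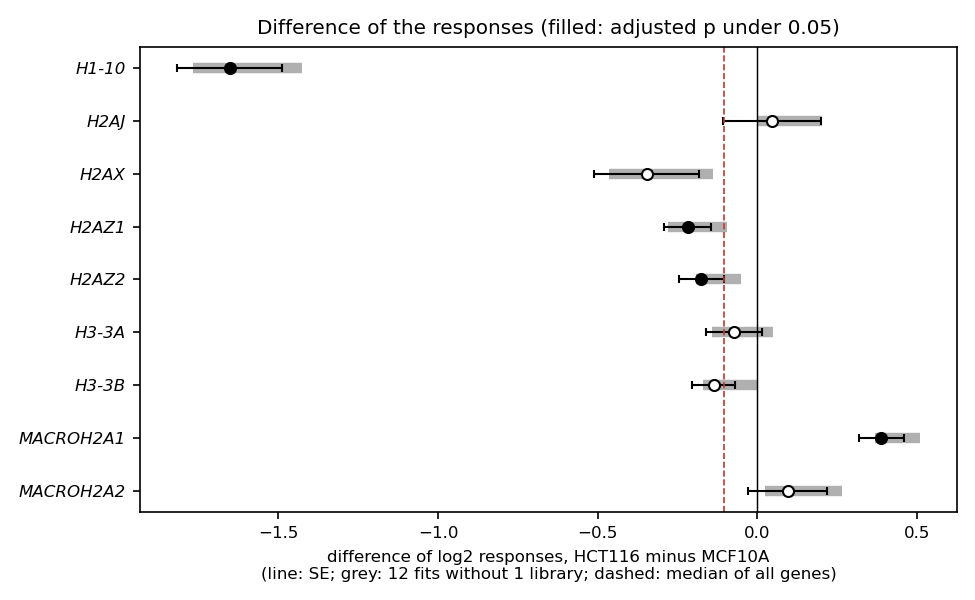
Difference of the log2 responses, HCT116 minus MCF10A (horizontal axis), for the 9 genes. Points are the difference over 12 libraries (filled where the adjusted p is under 0.05), black lines SE, grey bars the range over 12 fits that each left out a library, and the dashed line the median of all genes at -0.10 in the fit over all 12 libraries, which lies near 0 in some other fits. H1-10 at -1.65 and MACROH2A1 at 0.39 stand apart from the dashed line, and H2AZ1 at -0.22 and H2AZ2 at -0.18 lie close to it.

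Between the lines without irradiation, 8 of the 9 members were called, against 74.8% of all genes tested, 4 higher (all genes 38.7%) and 4 lower (36.1%) in HCT116. Higher in HCT116 were H1-10 (0.72, SE 0.093, adjusted p = 1.6e-06), H3-3B (0.51, SE 0.051, 4.7e-08), H2AX (0.49, SE 0.108, 0.00052) and H2AZ2 (0.40, SE 0.049, 8.0e-07). Lower were H2AJ (-1.36, SE 0.109, 3.0e-09), H3-3A (-1.02, SE 0.064, 8.1e-11), MACROH2A1 (-0.63, SE 0.051, 3.1e-09) and H2AZ1 (-0.35, SE 0.058, 3.4e-05), whose CPM ranges overlapped. The paralogs of H3.3 and of H2A.Z thus differed between the lines in opposite directions, which held under each scaling. MACROH2A2 was not called at 0.02 (SE 0.079, 0.82), yet its CPM did not overlap, at 32.9 to 38.5 in MCF10A and 39.9 to 41.4 in HCT116. Library size alone or upper-quartile factors moved the median of all genes from 0.05 to 0.25, when 47.1% of genes were higher and 28.4% lower (upper-quartile factors), and MACROH2A2 was then called at 0.22. Across scalings H2AZ1 then reached -0.14 and H2AZ2 0.61, and the 8 calls above held.

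With irradiation 7 of the 9 differed between the lines, against 74.9% of all genes tested, 2 higher (all genes 38.1%) and 5 lower (36.8%). H1-10 was then lower in HCT116, at -0.91 (SE 0.138, adjusted p = 1.7e-06), the reverse of its order without irradiation. H2AJ lay at -1.29 (SE 0.116, 1.6e-10), H3-3A at -1.08 (SE 0.056, 2.1e-15) and H2AZ1 at -0.55 (SE 0.05, 2.3e-10). H3-3B was higher at 0.39 (SE 0.048, 4.0e-08) and H2AZ2 at 0.25 (SE 0.053, 0.00018). MACROH2A1 was called lower, at -0.23 (SE 0.049, adjusted p = 0.00017), with 228 CPM in MCF10A and 229 in HCT116, and this depended on scaling: it was at -0.04 with upper-quartile factors and at 0.0026 with library size alone. H2AX at 0.16 (SE 0.101, 0.15) and MACROH2A2 at 0.13 (SE 0.096, 0.22) were not called, and both were called with either of these scalings, at 0.34 and 0.39 for H2AX and 0.315 and 0.36 for MACROH2A2, which was also called in 1 fit over all 18 libraries (0.20). Across scalings H2AZ1 reached -0.32, H2AZ2 0.48 and H3-3B 0.62. H2AX was also called without MCF10A IR replicate 3 (0.26) and without HCT116 IR replicate 2 (0.25).

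The mixed cultures were set against HCT116 alone, which share the line that gave most of their RNA. Without irradiation none of the 9 members was called with edgeR or DESeq2, against 2.04% of all genes tested, and 3 had an unadjusted p under 0.05 in edgeR (H2AX, H3-3B and MACROH2A2). With irradiation 1 was called, against 8.56% (5.08% higher). H2AZ2 was higher in the mixed cultures by 0.29 (SE 0.058, adjusted p = 0.0011), at 135.7, 154.7 and 156.6 CPM against 116.3, 122.4 and 124.1 CPM. MCF10A IR libraries, at 84.5 to 88.6 CPM, lay below both. The call held in each of the 6 fits that left out a library, from 0.26 to 0.35. The shares of all genes were less steady: without irradiation 0.845% were called without Mixed NIR replicate 1, 1.05% without HCT116 NIR replicate 2, 1.32% without HCT116 NIR replicate 3 and 4.35% with a replicate block. With irradiation 4.88% were called without Mixed IR replicate 2, 5.16% without Mixed IR replicate 3 and 13% with a replicate block.

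Over the 6 groups the order of levels differed from gene to gene. H3-3B ran from 1126 CPM in mixed NIR over 1028 in HCT116 NIR to 407 in MCF10A IR. In between, HCT116 IR (628) overlapped both mixed IR (666.5) and MCF10A NIR (627), which did not overlap each other. H3-3A had the opposite order of lines, with MCF10A NIR (211) and MCF10A IR (154.6) above all other groups. In H2AX, MCF10A NIR (44.0), mixed IR (35.5) and HCT116 IR (33.9) were neighbours whose libraries overlapped. In MACROH2A1, MCF10A NIR (295) stood above the 5 other groups, whose means lay between 218 and 229 CPM and whose libraries overlapped from each neighbour to the next. In H2AJ, both MCF10A groups stood above the 4 others, which overlapped in turn.

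Between genes, levels can be compared only per length, here as CPM per kb of exons in GENCODE release 29, which may not be the annotation behind the counts. On this scale H2AZ1 (386 ± 26.9) was highest in MCF10A NIR, followed by H3-3B (214 ± 7.90) and MACROH2A1 (97.7 ± 2.97), and H1-10 (14.5 ± 1.72) was lowest (SD, n = 3). In HCT116 NIR H3-3B (351.0 ± 12.3) and H2AZ1 (348 ± 15.2) were level within their spread, and H2AJ (14.5 ± 0.53) was lowest. In HCT116 IR H3-3B (214 ± 8.72) stood above H2AZ1 (124 ± 1.95).

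Genes that load, remove or read these variants were taken from lists written with earlier results of these data known. Over all genes tested, 26.2% were higher and 29.2% lower in irradiated MCF10A, 25.3% and 27.2% in HCT116, and 24% and 25.4% in the mixed cultures. All 4 replication-coupled H3-H4 chaperones (CHAF1A, CHAF1B, ASF1B and NASP) fell in each culture, with medians of -1.25 in MCF10A, -1.24 in HCT116 and -1.08 in the mixed cultures. NASP fell by 1.52 in MCF10A (SE 0.052, adjusted p = 2.3e-19) and ASF1B by 1.67 in HCT116 (SE 0.069, 4.2e-15). CHAF1B fell by 1.37 in MCF10A (SE 0.075, 6.2e-15) and CHAF1A by 1.40 in HCT116 (SE 0.072, 1.6e-13), and ASF1B was 2.83-fold lower in irradiated mixed cultures (SE 0.071 on the log2 scale, 3.5e-13). The 7 H3.3 chaperones (HIRA, CABIN1, UBN1, UBN2, ASF1A, DAXX and ATRX) had medians of -0.12, -0.01 and -0.04, with 3 lower in MCF10A, 2 higher and 2 lower in HCT116, and 2 higher and 3 lower in the mixed cultures, so that 2 of 7 lower in HCT116 is near the share of all genes. The number lower ran from 1 to 4 in MCF10A, from 1 to 2 in HCT116 and from 1 to 3 in the mixed cultures over the alternatives. In HCT116 it was 1 when any single library among NIR replicates 1 to 3 and IR replicates 1 and 2 was left out. ATRX rose in HCT116 by 0.48 (SE 0.063, adjusted p = 9.3e-07) and in the mixed cultures by 0.30 (SE 0.056, 0.00011), and was not called in MCF10A, at -0.08 (SE 0.047, 0.15), except without MCF10A NIR replicate 2 (-0.11).

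Of 11 genes of H2A.Z exchange and removal, 1 was higher and 8 lower in MCF10A, 2 higher and 4 lower in HCT116, and 2 higher and 5 lower in the mixed cultures, against the shares of all genes above. ANP32E, a chaperone that removes H2A.Z, went from 377 to 159.5 CPM in the mixed cultures (-1.27, SE 0.061, adjusted p = 5.9e-13). ZNHIT1, a subunit of the SRCAP complex that deposits H2A.Z, rose by 0.415 in MCF10A (SE 0.066, 5.1e-06), by 0.30 in HCT116 (SE 0.072, 0.0013) and by 0.39 in the mixed cultures (SE 0.076, 0.00023). DMAP1, another subunit, rose by 0.37 in HCT116 (SE 0.09, 0.0015) and was not called in MCF10A, at -0.17 (SE 0.081, 0.087). In the mixed cultures DMAP1 was called at 0.21 (SE 0.071, adjusted p = 0.018), but not without NIR replicate 2 (0.20) or IR replicates 2 (0.21) or 3 (0.19), nor without a filter on low counts (0.19). The 4 H2A-H2B chaperones were all lower in MCF10A and in the mixed cultures, and 3 of them in HCT116. Of 5 genes that phosphorylate, bind or act on H2AX, 3 were lower in MCF10A, 1 higher and 2 lower in HCT116, and 1 higher and 3 lower in the mixed cultures. PPM1D, a phosphatase that acts on phosphorylated H2AX, rose by 1.46 in HCT116 (SE 0.062, 7.4e-15) and by 1.11 in the mixed cultures (SE 0.066, 1.1e-11), and was not called in MCF10A, at -0.02 (SE 0.1, 0.86).

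CENPA, the centromeric H3 variant, fell from 25.4 to 9.43 CPM in MCF10A (-1.45, SE 0.098, adjusted p = 5.7e-13), by 1.48 in HCT116 (SE 0.118, 3.4e-10) and by 1.35 in the mixed cultures (SE 0.107, 1.1e-09). Between the lines without irradiation PPM1D (1.58) and ASF1B (1.42) were higher in HCT116, and ATM (-0.71), ACTL6A (-0.66) and ANP32E (-0.54) lower. In that comparison the lists held 2 higher and 1 lower H3.3 chaperone, 3 and 1 replication-coupled chaperones, 0 and 7 genes of H2A.Z exchange, 0 and 3 H2A-H2B chaperones, and 3 and 2 genes of H2AX, against 38.7% higher and 36.1% lower over all genes tested (47.1% and 28.4% with upper-quartile factors). These counts moved with scaling: over the alternatives 1 to 5 H3.3 chaperones and 0 to 3 genes of H2A.Z exchange were higher, 4 to 7 of the latter lower, and 1 to 3 H2A-H2B chaperones lower.

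For each member the genes of most similar pattern were sought among 9912 genes, by the root-mean-square difference of centred log2(CPM + 1) means over the 6 groups. The nearest were PTMS and FEN1 for H2AX (0.033 and 0.042), KIF11 and ARHGAP11A for H2AZ1 (0.082 and 0.083), and RFC2 and TONSL for H2AZ2 (0.049 and 0.061). GLUD1 (0.042) and SRGAP2C (0.057) were nearest to H3-3A, and XRCC6 (0.04) and HSP90AB1 (0.046) to H3-3B. CETN3 (0.054) and TMEM38B (0.059) were nearest to MACROH2A2, YDJC (0.018) and CDC123 (0.028) to MACROH2A1, and MPC1 (0.083) and NCOR1 (0.084) to H2AJ. For H1-10 the nearest, CNTRL (0.212) and NSD2 (0.233), lay farther away. The distance is not scaled to a gene's range, and H1-10 ran from 8.55 to 41.5 CPM over the groups. Its larger distance therefore need not mean a more unusual pattern. Since mixed cultures were mostly HCT116 RNA, the 6 groups hold fewer than 6 independent conditions.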

How the data were processed

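RNA of 18 libraries was counted per gene. Per the submitters' processing notes, the authors used fastp, STAR and featureCounts with build GRCh38; versions, annotation and strand setting are not given in the sources used here. The deposited values are raw counts per gene symbol, 1 table per library, without normalization. Groups come from the sample titles. The labels call replicates biological without saying what separates them, so p-values measure the spread between these libraries. The members and lists were chosen with earlier results of these data known.

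Of the values from 1 to 10, 68.3% were even, and totals exceed the mean read number of the design text, so fits with halved counts were run. Comparisons used edgeR 4.0.16 in R 4.3.3 (TMM, filterByExpr, quasi-likelihood F test, 2-sided) on all genes of the compared groups, with Benjamini-Hochberg adjustment over all genes tested. Genes under an adjusted p of 0.05 are called. SE were derived from the fold change and F. The test was checked on simulated counts. CPM used library totals, whereas fold changes used TMM. Paralog ratios were tested with exact permutation (pseudocount 0.5). The MCF10A share came from genes with at least 20 CPM in one line and less than 1 CPM in all libraries of the other line. Members were all reported. From the lists, up to 3 genes per direction and comparison with the largest change among called genes at 5 CPM or more were named, and 2 genes of most similar pattern per member at a mean of 10 CPM or more. CDKN1A and MKI67 were reported as a check of irradiation. Sequences are from RefSeq (GRCh38.p14) and GENCODE release 29, in which all 9 members matched. Protein sequences were not used here. The result of 1 gene of the lists is not reported here.

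The main fits treated same-numbered libraries as independent. Correlations of residuals between same-numbered libraries lay between -0.102 and 0.176, and not every pair exceeded 0.1. Between HCT116 and mixed cultures all were positive, at 0.012 to 0.176 in NIR and 0.038 to 0.124 in IR libraries. In these comparisons a replicate block raised the calls over all genes, from 335 to 716 and from 1467 to 2220. It lowered them in every other comparison. Whether HCT116 and mixed libraries of the same number share an origin was not tested. Alternatives were upper-quartile factors, library size alone, DESeq2 1.42.0, no filter, removal of mitochondrially encoded and the 10 most abundant genes, halved counts, 1 fit over all libraries, a replicate block, leaving out each library, and, added after seeing the data, copies counted with H3-3A and the same alternatives for the genes of the lists.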

Additional observations from a re-analysis of the deposited data

Results flagged for a closer look

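The responses to irradiation of HCT116 and MCF10A differed, by the test of the difference itself, for 4 of the 9 members, against 37.3% of all genes tested. The log2 response of H1-10 differed by -1.65, with means of 21.9 (NIR) and 13.7 (IR) CPM in MCF10A, 41.5 and 8.55 CPM in HCT116. That of MACROH2A1 differed by 0.39, with 295 and 228 CPM in MCF10A, 218 and 229 CPM in HCT116. H2AZ1 differed by -0.22 and H2AZ2 by -0.18, at percentiles 42.9 and 45.4 of all genes. Of the 12 fits that left out a library, the H2AZ1 call was lost in 7 and the H2AZ2 call in 11. Groups of 3 libraries were too small to look for single outlying samples.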

How the results depend on the processing

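Counts of called members were the same under all alternatives for irradiation of MCF10A (8), HCT116 (7) and mixed cultures (7), and for mixed against HCT116 cultures (0 and 1). Between the lines they ran from 8 to 9 without and from 7 to 8 with irradiation. For the difference of responses the count fell from 4 to 2 with library size alone, without a filter, without mitochondrial and top genes, and in 1 fit over all libraries. It ran from 2 to 4 in fits that left out a library, and the cause was not tested. With a replicate block it was 3, as H2AZ2 was lost (adjusted p = 0.0585 in edgeR), and no other call of a member changed under the block. MACROH2A1 between the irradiated lines turned from -0.23 to 0.0026 with library size alone. Between the NIR lines NASP went from -0.20 to 0.0047 with upper-quartile factors and 0.0012 with library size alone, and ZNHIT1 from -0.20 to 8e-04 with upper-quartile factors. The IR minus NIR share of MCF10A RNA was 0.794 percentage points, 1.116 as a mean over genes, and 0.769 to 0.831 without 1 library (exact permutation p = 0.1 with all libraries).

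Without 1 library, the H2AZ1 over H2AZ2 ratio changed by -0.541 to -0.455 in MCF10A, -0.560 to -0.516 in HCT116, -0.826 to -0.723 in mixed cultures and -0.791 to -0.705 between the lines. H3-3A over H3-3B ran over 0.137 to 0.215, 0.186 to 0.283, 0.198 to 0.245 and -1.58 to -1.50, and MACROH2A1 over MACROH2A2 over 0.362 to 0.501, 0.695 to 0.755, 0.859 to 0.992 and -0.709 to -0.606. With 3 libraries a group, exact permutation tests cannot go below 0.1. H2AJ and H1-10 had the fewest counts, at as few as 220 and 224 in a library. Over all genes, the counts called between mixed and HCT116 cultures were 335 without and 1467 with irradiation, 520 and 1449 in DESeq2, 671 and 1593 without a filter, 768 and 1338 in 1 fit over all libraries, and 716 and 2220 with a replicate block. Leaving out a library gave 145 to 313 and 866 to 1312.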

Other observations

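MDC1, whose protein binds phosphorylated H2AX, fell after irradiation by 0.71 in MCF10A (SE 0.059, adjusted p = 3.3e-11 in edgeR), by 1.38 in HCT116 (SE 0.075, 4.2e-13) and by 0.97 in the mixed cultures (SE 0.069, 1.9e-10). MDC1 was chosen from the lists after its values were seen.

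The processed copy H3P16 was listed at 9.80 CPM in HCT116 NIR, 7.70 in HCT116 IR, 8.90 in mixed NIR and 6.32 in mixed IR cultures, and at 0.029 and 0.213 CPM in MCF10A NIR and IR. H3P6 had its highest level in MCF10A NIR, at 36.1 CPM.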
